A study of Homo sapiens with 30 samples.

Results

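In differentiating H9 human embryonic stem cells, CUZD1, NPTX1, RHBDL3 and GALNT9 rose from background or close to it to a peak at day 3. This was their highest level among the days sampled, and the course between those days was not measured. The 4 genes then fell away in both arms of the culture. They were chosen because their rises from day 1 to day 3 were the largest on the array apart from that of IRX3, so the rise itself is a description here and carries no test. The 4 genes are read by 8 probes of 48701 on the array, and all 4 were among the 13488 genes that passed the detection filter. The gene just inside this choice was GALNT9, with a rise of 4.47 on the log2 scale (rank 5, after CUZD1, NPTX1, RHBDL3 and IRX3). No day 1 array detected GALNT9, so its value and rank are fitted against background, and its bound is a rise of at least 15.6-fold. The gene just outside it was SELENOP, with a rise of 4.35.

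H9 is an established line of human embryonic stem cells, so every value comes from a single genetic background. Total RNA was hybridised to Illumina bead arrays from cells at days 1 and 3, before the arms part, and from each arm at days 5, 7, 9 and 11. The labels name the arms NSB and PIP and describe the latter as placode differentiation, placodes being the thickenings of head ectoderm that form the lens, the inner ear and parts of the sensory ganglia and pituitary. The labels do not spell out NSB, and the media and agents of the groups are not given in the sources used here. In usual practice NSB stands for Noggin with SB431542, which block BMP and Activin/Nodal signalling and turn pluripotent cells into neural ectoderm, and in placode induction BMP signalling is let back in part of the way through. Each of the 10 groups has 3 arrays, labelled as biological replicates. On the day 3 arrays and those of day 5 in either arm the label holds a pair of sample codes, without a word on pooling.

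The members belong to unrelated families. NPTX1 is neuronal pentraxin 1, a secreted protein that gathers AMPA receptors at excitatory synapses. In human pluripotent stem cells it has been reported to favour the neural lineage by lowering Nodal and BMP signalling through the co-receptor TDGF1. RHBDL3 is a rhomboid-like protein, of a family of serine proteases that cut within membranes. GALNT9 is a polypeptide N-acetylgalactosaminyltransferase found mostly in brain, of the enzyme family that places the first sugar of mucin-type O-glycans. CUZD1 carries CUB and zona pellucida-like domains and is known from the zymogen granules of the rodent pancreas and from the uterus.

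Readings given array by array are mean bead intensities as deposited, without normalisation, and a probe counts as detected at a detection p under 0.05. Median intensity ranged from 45.4 to 74.7 over the 30 arrays, 34 to 37.7% of probes were detected, and arrays of a group correlated at 0.988 to 0.998. Between the day 9 arrays of both arms and the mean of days 7 and 11, 8118 of 13488 genes, 60.2%, differed, and no matched comparison was made for another day. In bulk RNA, fewer cells of a type and less RNA per cell cannot be told apart.

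CUZD1 had the largest rise from day 1 to day 3 of all genes tested and was detected on no array of day 11. The 250 bases before its start, from RefSeq (GRCh38.p14, chr10:122845858-122846107, minus strand), are shown because they hold a TATA box where few promoters do. The TATAAA match, 30 bases before the start, is in capitals.
CUZD1 promoter: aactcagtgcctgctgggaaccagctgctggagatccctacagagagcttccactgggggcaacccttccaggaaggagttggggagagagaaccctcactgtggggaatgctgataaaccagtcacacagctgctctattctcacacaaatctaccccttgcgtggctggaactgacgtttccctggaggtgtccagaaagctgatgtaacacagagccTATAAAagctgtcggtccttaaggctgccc
TATAAA was searched on both strands and occurs in 10.7% of 35114 RefSeq windows of the same length. The window holds 3 CpG, against a median of 11, and 54% G and C, against a median of 58%.

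The CUZD1 probe (ILMN_1734909) read 78.6, 74.2 and 56.4 on the day 1 arrays, none detected. It read 6398.1, 5451.5 and 5947.6 at day 3. The log2 difference was 7.34 ± 0.11 (SE), at least 134-fold, rank 1 of all genes tested. In NSB the probe read 2251.6, 1918.2 and 1521.6 at day 5, then 203, 351 and 329.6 at day 7. It read 103, 123 and 149 at NSB day 9, all detected, and 62.1, 55.3 and 50.5 at day 11, none detected. The NSB arm thus stepped down at every sampling, with no overlap between one day and the next. In PIP the probe read 398, 331 and 374 at day 5 and 110.3, 93.5 and 103 at day 7. It read 91.1, 79.7 and 76 at PIP day 9, of which 1 was detected, and 58.7, 58.4 and 59.8 at day 11, none detected. PIP also stepped down at every sampling, from a lower start: every PIP array of day 5 lay below every NSB array of that day, and the same held at day 7.

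On the normalised scale, after the offset was taken off, 34.5 ± 2.25% (SD, n = 3) of the day 3 level of CUZD1 was left at NSB day 5 and 5.99 ± 0.366% at PIP day 5. By day 7 these shares were 5.16 ± 1.02% and 0.694 ± 0.124%. Read as a time to lose 50% of the level, the fall from day 3 to day 5 took 1.3 days per halving in NSB and 0.492 days in PIP. From day 5 to day 7 it took 0.725 days in NSB and 0.64 days in PIP. The PIP time ends near background, at 0.694% against 0.311% at day 1, where no array was detected. At day 5 the arms already stood apart. In limma's fit over all 30 arrays, CUZD1 was lower in PIP by 5.52-fold at day 5 (log2 -2.47 ± 0.11 SE, adjusted p = 5.70e-15) and by a log2 difference of -2.43 at day 7 (adjusted p = 1.58e-15). The gap at day 9 was -0.96 (adjusted p = 1.26e-07), where PIP was detected on 1 array. At day 11 neither arm was detected. The change from day 5 to day 7 differed between the arms by 0.03 ± 0.16 (95% interval -0.30 to 0.36, adjusted p = 0.935), and this difference depended on how low values were treated, being 0.48 with an offset of 50 (adjusted p = 0.00632) and -0.36 in the deposited processed values (adjusted p = 0.257).

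**Figure D1:**
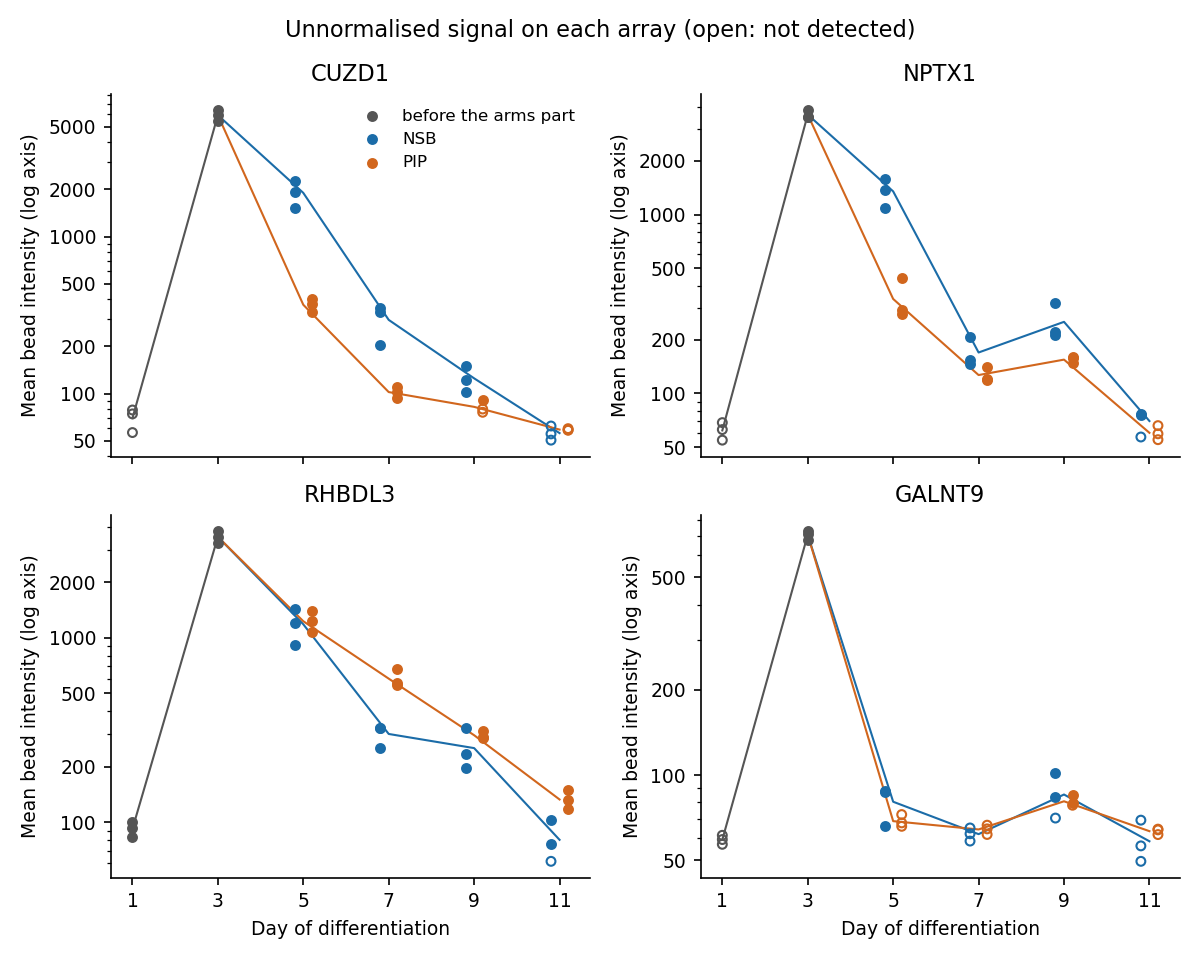
Unnormalised mean bead intensity (log axis) of the probe of each member on every array against day of differentiation, with lines through the group means; open circles are arrays on which the probe was not detected. All 4 genes peak at day 3, CUZD1 and NPTX1 lie lower in PIP at day 5, and RHBDL3 lies higher in PIP at day 7.

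NPTX1 followed a course like that of CUZD1 up to day 7 and then turned up at day 9. Its probe (ILMN_1814221) read 62.8, 68.7 and 54.8 at day 1, none detected, and 3843, 3499.8 and 3522.9 at day 3. The log2 difference was 6.77 ± 0.12 (SE), at least 79.3-fold, rank 2. In NSB the probe read 1581.2, 1372 and 1090.7 at day 5 and 146, 154 and 208 at day 7. It read 221, 211 and 322 at NSB day 9 and 77, 76.2 and 57.1 at day 11, when 2 of the 3 were detected. The NSB day 9 arrays all lay above the NSB day 7 arrays, and the day 11 arrays all lay below both. In PIP the probe read 440.1, 279 and 293 at day 5 and 141, 119 and 119.8 at day 7. It read 148, 159 and 157 at PIP day 9 and 55.1, 59.5 and 66.1 at day 11, none detected. PIP showed the same order of days, without overlap between day 7 and day 9.

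Of the day 3 level of NPTX1, 41.1 ± 2.75% (SD, n = 3) was left at NSB day 5 and 8.95 ± 1.55% at PIP day 5, a halving time of 1.56 days in NSB and 0.572 days in PIP. From day 5 to day 7 the order of the arms turned: NPTX1 halved every 0.612 days in NSB and every 0.888 days in PIP. NPTX1 was lower in PIP by 4.43-fold at day 5 (log2 -2.15 ± 0.12 SE, adjusted p = 4.98e-13, limma). The gap was -1.01 at day 7 (adjusted p = 5.27e-07) and -0.82 at day 9 (adjusted p = 6.21e-06). At day 11 it was -0.40 ± 0.12 (adjusted p = 0.0134) with PIP below background, at least 1.01-fold. That last call was lost without replicate 1 or 2 of NSB day 11 or replicate 1 of PIP day 11, where the adjusted p reached 0.0692. The fall from day 5 to day 7 was smaller in PIP than in NSB by 1.14 ± 0.17 (adjusted p = 3.97e-05). The rise from day 7 to day 9 was 0.37 ± 0.12 in NSB (adjusted p = 0.0139) and 0.55 ± 0.12 in PIP (adjusted p = 4.61e-04). The NSB rise was lost without NSB day 7 replicate 2 (adjusted p = 0.112) or without NSB day 9 replicate 1 (adjusted p = 0.0723). Against the mean of days 7 and 11 in both arms, NPTX1 at day 9 stood 1.29 ± 0.07 higher (adjusted p = 1.32e-14). In that comparison 60.2% of all genes differed and 30% were higher. RHBDL3 (0.44, adjusted p = 5.79e-04) and GALNT9 (0.37, adjusted p = 2.10e-05) were also called higher there, GALNT9 with no array of days 7 and 11 detected. CUZD1 did not pass (adjusted p = 0.137).

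**Figure D2:**
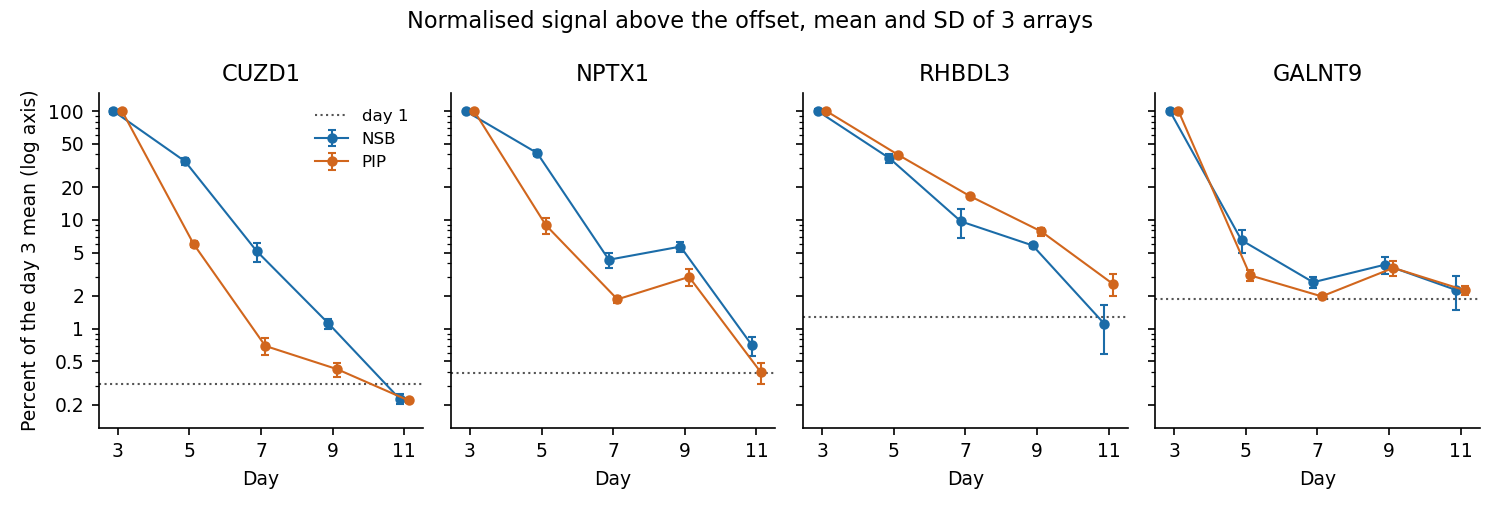
Percent of the day 3 mean left (log axis) against day, for normalised signal after the offset was taken off; points and bars are the mean and SD of 3 arrays, and the dotted line is the day 1 level. CUZD1 and NPTX1 drop to 5.99% and 8.95% by PIP day 5, RHBDL3 keeps 36.9% in NSB and 39.7% in PIP, and GALNT9 keeps 6.5% in NSB. The GALNT9 probe was detected on no array at PIP day 5, so its 3.09% there is a background reading.

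RHBDL3 fell in PIP at every sampling and was the only member called higher there than in NSB, at days 7 and 11. Its probe (ILMN_1716019) read 93.2, 100.5 and 83.1 at day 1, detected on all 3 arrays, and 3774.4, 3275.2 and 3500.9 at day 3. The log2 difference was 5.80 ± 0.17 (SE), 55.6-fold, rank 3. In NSB the probe read 1435.4, 1204.7 and 908 at day 5 and 324, 254 and 326 at day 7. It read 197, 234 and 326 at NSB day 9 and 103, 76.7 and 61.6 at day 11, with 2 arrays detected. Before normalisation the NSB arrays of days 7 and 9 overlapped, whereas those of day 11 lay below both. On the normalised log2 scale NSB day 9 (7.46 to 7.61) lay below NSB day 7 (7.85 to 8.63). In PIP the probe read 1386.9, 1070.2 and 1228 at day 5 and 677, 571 and 554 at day 7. It read 312, 291 and 287 at PIP day 9 and 118, 149 and 132 at day 11, all detected. The PIP arrays fell without overlap at every step and lay above the NSB arrays at days 7 and 11. Before normalisation the arms overlapped at days 5 and 9. On the normalised log2 scale they overlapped at day 5 only, with 7.86 to 8.07 in PIP and 7.46 to 7.61 in NSB at day 9.

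Of the day 3 level of RHBDL3, 36.9 ± 3.67% (SD, n = 3) was left at NSB day 5 and 39.7 ± 0.861% at PIP day 5. At day 7 the shares were 9.67 ± 2.91% and 16.6 ± 0.301%, and at day 11 they were 1.11 ± 0.531% and 2.58 ± 0.593%, around a day 1 level of 1.28%. In PIP the gene halved every 1.5, 1.58, 1.84 and 1.23 days over the 4 intervals from day 3 to day 11. In NSB it halved every 1.39 and 1.02 days up to day 7 and every 2.89 days from day 7 to day 9. The arms did not differ past the threshold at day 5 (0.11 ± 0.17, 95% interval -0.23 to 0.45, adjusted p = 0.741, limma), and the sign of that difference turned to -0.085 with median scaling on all probes. RHBDL3 was higher in PIP by 0.78 ± 0.17 at day 7 (adjusted p = 0.0016) and by 0.94 ± 0.17 at day 11 (adjusted p = 7.86e-05). At day 9 the difference was 0.39 (adjusted p = 0.101), which passed with an offset of 50 (0.34, adjusted p = 0.0484) and with only the groups compared in the fit (adjusted p = 0.0136). The change from day 5 to day 7 differed between the arms by 0.67 ± 0.24 (adjusted p = 0.0653), which passed the threshold without NSB day 7 replicate 1 (adjusted p = 0.00696) and under 3 of the other settings tried.

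GALNT9 had the smallest rise of the 4 members and the dimmest day 3 peak, a mean of 707 against 3517 to 5932 for the others. Its probe was also the first to fall to background, and whether the dimmer peak accounts for this was not tested. RefSeq gives it 2 start windows of 250 bases (GRCh38.p14, both on the minus strand), chr12:132329590-132329839 and chr12:132206029-132206278 (the window table used here names no transcript for either). They are shown because the gene has 2 of them, and whether either bears on the differences between its probes was not tested. The capitals mark GGGCGG on either strand.
GALNT9 promoter, first window: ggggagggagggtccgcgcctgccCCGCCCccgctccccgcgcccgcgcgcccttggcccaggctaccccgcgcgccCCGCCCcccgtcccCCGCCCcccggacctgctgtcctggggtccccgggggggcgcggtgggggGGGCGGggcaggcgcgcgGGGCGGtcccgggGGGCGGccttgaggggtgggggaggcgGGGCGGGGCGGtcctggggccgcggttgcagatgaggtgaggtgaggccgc
GALNT9 promoter, second window: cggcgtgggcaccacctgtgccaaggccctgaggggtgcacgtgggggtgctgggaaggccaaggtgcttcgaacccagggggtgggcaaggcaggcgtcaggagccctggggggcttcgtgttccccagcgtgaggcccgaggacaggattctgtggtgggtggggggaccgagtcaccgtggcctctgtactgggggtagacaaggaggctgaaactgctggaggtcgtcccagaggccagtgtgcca
The first window holds 8 matches, overlapping ones counted, with 32 CpG and 85.2% G and C. The second holds none, with 11 CpG and 67.6% G and C. GGGCGG occurs in 42.6% of the 35114 RefSeq windows. TATAAA was found in neither, and the octamer ATGCAAAT and the sequence TAATCC, searched on both strands, were found in none of the 3 windows shown for CUZD1 and GALNT9. Those sequences occur in 1.63% and 5.62% of all windows.

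The GALNT9 probe used (ILMN_1653687) read 56.9, 59.2 and 61.2 at day 1, none detected, and 728, 713 and 679.6 at day 3. The log2 difference was 4.47 ± 0.11 (SE), at least 15.6-fold. In NSB it read 87.4, 88 and 66.1 at day 5, all detected, and 58.4, 65 and 62 at day 7, none detected. It read 70.5, 83.9 and 101.7 at NSB day 9, of which 2 were detected, and 56.2, 69.3 and 49.5 at day 11, none detected. In NSB this probe was thus above background at days 3 and 5 on every array and again on most arrays at day 9. The other probes of the gene were detected on no array of NSB day 5 or NSB day 9. In PIP it read 72.5, 67.8 and 65.9 at day 5 and 66.5, 64.5 and 61.7 at day 7, none detected. It read 78.2, 84.7 and 79.4 at PIP day 9, of which 2 were detected, and 64, 61.6 and 64.4 at day 11, none detected. No PIP group had GALNT9 detected on all of its arrays.

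At NSB day 5, 6.5 ± 1.51% (SD, n = 3) of the day 3 level of GALNT9 was left, a halving time of 0.504 days, and at PIP day 5 the background reading was 3.09 ± 0.34%, against 1.89% at day 1, also not detected. GALNT9 was lower in PIP at day 5 by -0.65 ± 0.11 on the log2 scale (at least 1.47-fold, adjusted p = 1.16e-04, limma). Before normalisation 1 NSB array of that day lay within the PIP range. On the normalised log2 scale the arms did not overlap at day 5, with the lowest NSB array at 5.56 and the highest PIP array at 5.18. Neither arm was detected at days 7 and 11, and at day 9 the arms differed by -0.05 (adjusted p = 0.784). From day 7 to day 9 the fitted differences of GALNT9 were 0.28 in NSB (adjusted p = 0.0296) and 0.43 in PIP (adjusted p = 0.00166), but no day 7 array detected it. Against the lowest detected signal the NSB rise was at least 1.06-fold, and in PIP no fold can be given. The NSB call was lost without replicate 3 of NSB day 7 or replicate 2 or 3 of NSB day 9, where the adjusted p reached 0.122. The PIP call was lost with the mean of the gene's probes (0.12) and in the deposited processed values (0.30). The fall from day 5 to day 7 differed between the arms by 0.46 ± 0.15 (adjusted p = 0.0463), a call lost in 9 of the 12 fits that left out 1 array.

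The array holds 5 probes for GALNT9, and they did not read the same change. The day 3 rise of the probe used was 4.47, and 2 others annotated to the same transcript, NM_021808, rose by 1.63 and 0.94. These 3 were detected on all day 3 arrays. Another probe to NM_021808, ILMN_1796575, changed by -0.03, and the single probe to NM_001122636, ILMN_1725180, by 0.25, and both were detected on no array. The rank of GALNT9 in the order of rises therefore rests on 1 probe. CUZD1, NPTX1 and RHBDL3 have 1 probe each, and RefSeq also lists a readthrough transcript of FAM24B and CUZD1, and whether the CUZD1 probe reads it was not tested.

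**Figure D3:**
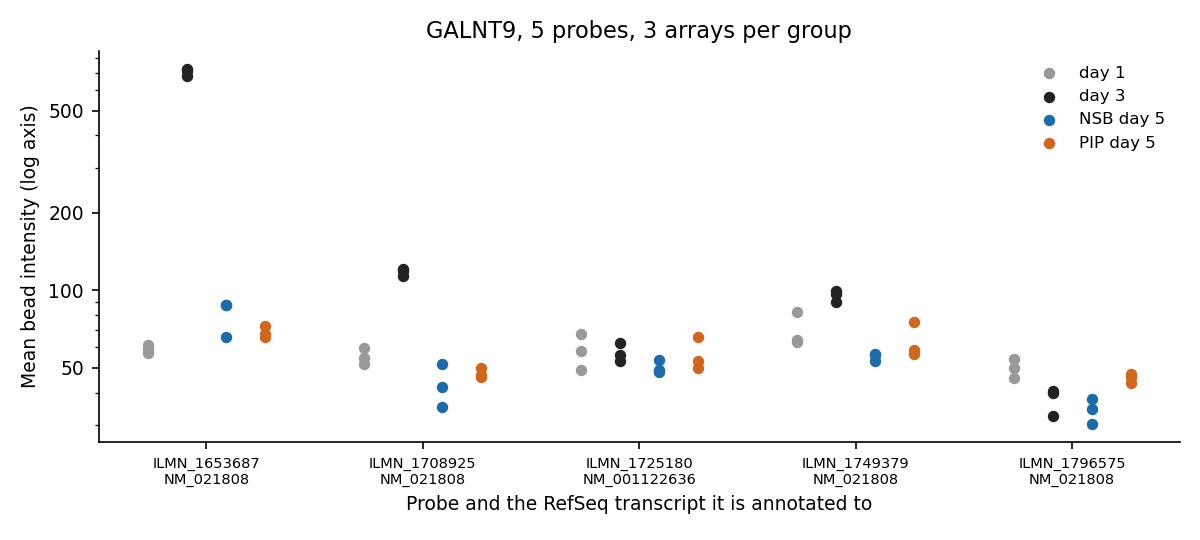
Unnormalised mean bead intensity (log axis) of the 5 GALNT9 probes at day 1, day 3 and day 5 of each arm, 1 point per array, with the RefSeq transcript each probe is annotated to. The probe used reads 679.6 to 728 at day 3, and ILMN_1725180 and ILMN_1796575 do not rise above their day 1 readings.

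Set side by side at day 5, 3 members were lower in PIP (CUZD1, NPTX1 and GALNT9), none was higher and RHBDL3 did not pass, where 11.5% of all genes were called and 5.59% were lower. At day 7 CUZD1 and NPTX1 were lower and RHBDL3 was higher, with 12.4% of genes called (5.93% lower and 6.51% higher). At day 9 CUZD1 and NPTX1 were lower and no other member passed, with 20.8% called and 10.5% lower. At day 11 NPTX1 was lower and RHBDL3 was higher, with 25.5% called (11.4% lower and 14.2% higher). No PIP array of day 11 detected NPTX1, so its gap there is at least 1.01-fold. That call was lost with an offset of 50 and in the deposited processed values. The gap of CUZD1 was similar in size at days 5 and 7, and at day 11, where no array of either arm detected it, no gap can be read. These shares of all genes called depend on the setting: 1554 genes were called at day 5 against 875 without PIP day 5 replicate 1, 1678 at day 7 against 1081 with median scaling on all probes and 782 with only the groups compared, and 3442 at day 11 against 5628 with that scaling.

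**Figure D4:**
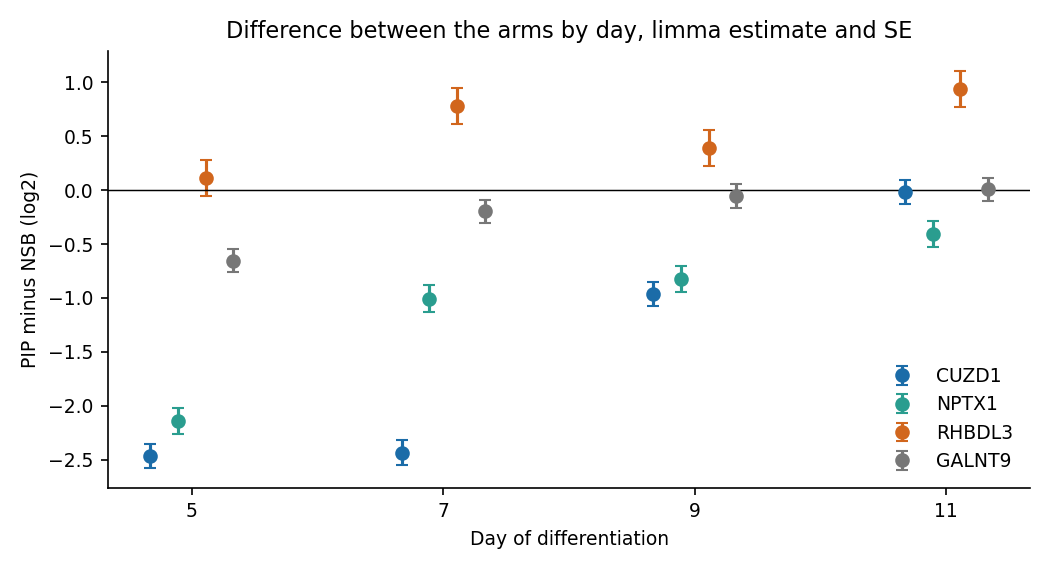
PIP minus NSB on the log2 scale against day, as the limma estimate with its SE (3 arrays per group). CUZD1 and NPTX1 stand at -2.47 and -2.15 at day 5, RHBDL3 stands at 0.94 at day 11, and GALNT9 at -0.65 at day 5. At day 11 CUZD1 and GALNT9 were detected in neither arm, so their values near 0 are background readings.

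Within the arms, all 4 members were called lower at day 7 than at day 5. In NSB, where 42.7% of all genes were called and 22.6% fell, the log2 changes were -2.68 for CUZD1 (adjusted p = 8.91e-17), -3.12 for NPTX1 (adjusted p = 1.60e-17), -1.91 for RHBDL3 (adjusted p = 3.93e-10) and -0.76 for GALNT9 (at least 1.47-fold, adjusted p = 1.50e-06). In PIP, where 33.5% were called and 16.9% fell, they were -2.65 for CUZD1 (adjusted p = 1.20e-16), -1.98 for NPTX1 (adjusted p = 3.39e-13), -1.24 for RHBDL3 (adjusted p = 1.22e-06) and -0.30 for GALNT9 (adjusted p = 0.0297), the last with both days below background and lost in 5 of the 6 fits that left out 1 array. From day 7 to day 9 the members split: CUZD1 and RHBDL3 fell and NPTX1 rose in each arm, and GALNT9 was called higher from a day 7 level at background, a call lost with the mean of its probes (0.14 in NSB and 0.12 in PIP). Over this interval 47.8% of all genes were called in NSB (23% higher and 24.7% lower) and 46.4% in PIP (22.5% higher and 23.9% lower). CUZD1 fell by 1.92 in NSB, and RHBDL3 by 0.65 in NSB and by 1.03 in PIP.

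From day 9 to day 11 all 4 members were called lower in each arm, GALNT9 with day 11 at background, with 51.1% of genes called in NSB (26.6% lower) and 47.6% in PIP (23.7% lower). NPTX1 fell 5.06-fold in NSB and at least 2.90-fold in PIP. The NSB change of GALNT9, -0.41, turned to 0.059 with median scaling on the probes detected on all arrays, and its PIP change, -0.35, was lost in the deposited processed values and with the mean of its probes. Over days 5 to 11 in NSB, where 61.5% of genes were called and 33.1% fell, the fall of CUZD1 was at least 46.7-fold, that of NPTX1 34-fold, that of RHBDL3 23.3-fold and that of GALNT9 at least 1.40-fold. In PIP, where 54.9% were called and 28.4% fell, CUZD1 fell at least 8.83-fold, NPTX1 at least 7.80-fold and RHBDL3 13.1-fold, and GALNT9 changed by -0.22 (adjusted p = 0.0804). Leaving day 9 out, CUZD1, NPTX1 and RHBDL3 were lower at day 11 than at day 7 in each arm, and GALNT9 was not past the threshold in either (44.1% of genes called and 24.4% lower in NSB, 38.7% called and 19.9% lower in PIP). The comparisons of an arm share the arrays of the days they have in common.

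The change from day 5 to day 7 was called different between the arms for 2 members, with 11.7% of all genes called and 6.14% in their direction. One of them, NPTX1, was detected on every array of the 4 groups compared. The other, GALNT9, was detected on no array in 3 of those 4 groups, so its fall in PIP was not measured, and its call was lost in 9 of 12 fits that left out 1 array. Over days 5 to 11 it was called different for all 4, with 19.9% called and 11.5% in their direction: by 2.45 ± 0.16 for CUZD1 (adjusted p = 3.49e-12), 1.74 ± 0.17 for NPTX1 (adjusted p = 1.17e-08), 0.83 ± 0.24 for RHBDL3 (adjusted p = 0.0128) and 0.66 ± 0.15 for GALNT9 (adjusted p = 0.00209). CUZD1 and GALNT9 were at background in both arms at day 11, and NPTX1 was so in PIP, so these values rest on the floor and carry the gap already present at day 5. RHBDL3 fell less in PIP and was detected there on every array of both days. With median scaling on the probes detected on all arrays, the values for RHBDL3 (0.56, adjusted p = 0.0598) and GALNT9 (0.18, adjusted p = 0.547) did not pass.

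For timing, POU5F1, a pluripotency factor, stood at 12.26 on the log2 scale at day 1, 11.27 at the day 3 peak of the members, and 7.00 and 6.82 at day 11 of NSB and PIP. PAX6, a neural and eye field factor, was at 4.80 and 4.70 at days 1 and 3, 6.11 and 5.73 at day 5 and 9.90 and 9.67 at day 7. The members thus peaked before PAX6 came up and while POU5F1 was still high. IRX3, a homeobox gene with rank 4 among the rises, also stood high at day 3 (10.97) but remained at 9.46 in NSB and 11.51 in PIP at day 11, unlike the members.

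The shape was shared with few other genes. Of 138 genes that rose by at least 2 log2 units from day 1 to day 3, 28 (20.3%) stood at least 2 log2 units below day 3 at day 11 in both arms, the 4 members among them. The members' maximum over the 10 groups was at day 3 for 4 of 4, as it was for 22 of the other 24. Both sets were chosen by high day 3 values, so this was largely set in advance by the choice. The 5 of the other 24 with the largest rises were PAPLN, C11orf96, MYB, TMPRSS2 and SEZ6. At day 5, 8 of the 24 were lower in PIP and 0 were higher, against 5.59% and 5.93% of all genes tested, with a median of -0.26 against -0.02 for all genes.

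**Figure D5:**
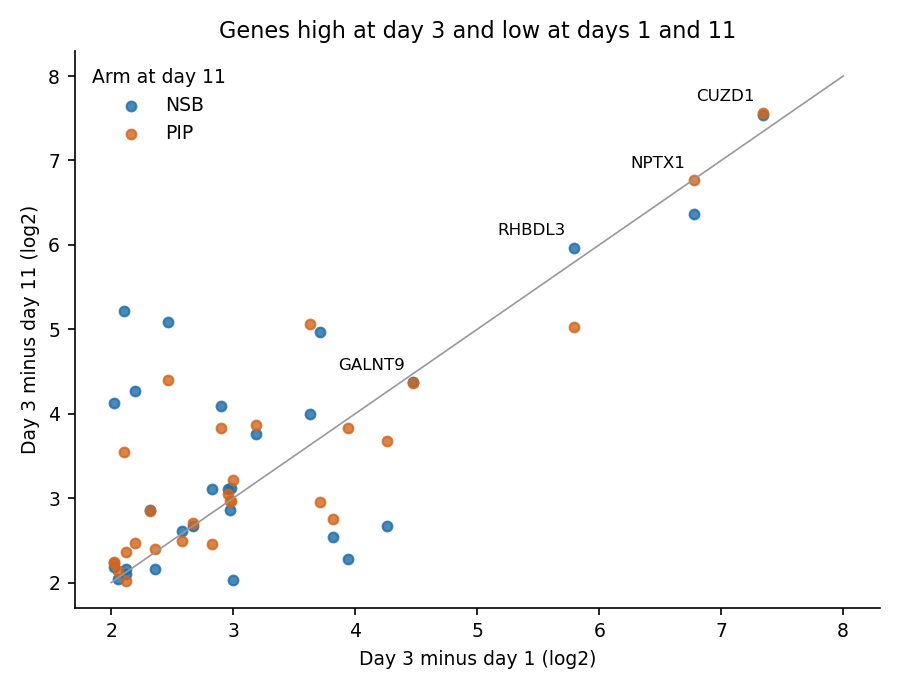
Log2 fall from day 3 to day 11 in each arm against log2 rise from day 1 to day 3 for the 28 genes past 2 log2 units in each, with the line of equal rise and fall. The 4 members are named; CUZD1, with a rise of 7.34, falls by 7.54 in NSB and 7.56 in PIP.

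Over the 10 group means, taken as a description since all points share the arrays and the day 3 peak, CUZD1 correlated with NPTX1 at 0.959 and with RHBDL3 at 0.874. GALNT9 was the least like the others, at 0.785 with CUZD1, 0.799 with NPTX1 and 0.675 with RHBDL3. Among 1648 genes whose group means ranged over at least 2 log2 units, the nearest to CUZD1 were PYGM, the muscle glycogen phosphorylase (0.966), PPP1R1B, a phosphatase inhibitor of dopamine-responsive neurons (0.958), and PDLIM3 (0.95). The nearest to NPTX1 were AHNAK2 (0.952), PPP1R1B (0.945) and RASGRP2 (0.944). Those to RHBDL3 were DCLK1, a doublecortin-like kinase (0.963), SYT6, a synaptotagmin (0.945), and PLCL2 (0.936). Those to GALNT9 were ADRA2A, an adrenergic receptor (0.981), CCN3 (0.976) and SCNN1G, a subunit of the epithelial sodium channel (0.969).

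The relatives of the members moved in both directions from day 1 to day 3, where 54.4% of all genes were called, 29% higher and 25.4% lower. Of 5 other pentraxins and AMPA receptor genes tested, 2 rose and 1 fell, the extremes being NPTX2, the paralog of NPTX1 (1.06 ± 0.09 SE, adjusted p = 3.87e-11), and PTX3 (-0.36 ± 0.14, adjusted p = 0.0264). Of 12 genes of Nodal signalling (ligands, inhibitors, receptors, SMADs and FOXH1), 4 rose and 6 fell. The largest rise was in the receptor ACVR1B (0.99). The largest fall was in the Nodal inhibitor LEFTY1, which was detected on 0 of the 3 day 3 arrays. Of 6 other rhomboid genes, 2 rose and 3 fell, from RHBDD2 (0.69) to RHBDD3 (-0.51). Of 13 other GalNAc transferases, 3 rose and 6 fell, from GALNT12 (1.20 ± 0.11) to GALNT4 (-1.09 ± 0.10). Of 8 genes that extend the O-glycan, 1 rose and 4 fell, GCNT1 by 1.39 and ST3GAL1 by -1.10. Of 6 other zona pellucida domain genes, 4 rose and 1 fell, from TGFBR3 (0.72) to POMZP3 (-0.31). In PIP against NSB at day 5, 11.5% of all genes were called. There 0 of the 5 pentraxin and AMPA receptor genes passed. Of the others, 12 of 13 GalNAc transferases, 5 of 6 rhomboid genes and 5 of 6 zona pellucida domain genes did not pass. Whether these lists differ from all genes was not tested.

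Marker lists were read beside the members, and their sums are of normalised signal with the offset taken off. Of all genes, 54.4% were called from day 1 to day 3, and 11.5% and 12.4% between the arms at days 5 and 7. Of 11 neuronal markers tested, 4 rose and 1 fell from day 1 to day 3, the peak of NPTX1 and GALNT9. Their median log2 change was 0.19, against 0.01 for all genes. Their summed signal was 5002 to 5717 at day 1 and 4225 to 4478 at day 3. This sum is weighted to TUBB3, the brightest of them at day 1 (12.03 on the log2 scale) and the 1 that fell (-0.57). Of 3 pancreatic exocrine markers tested, 1 rose, AMY2A, and the sum was 333 to 366 at day 1 and 346 to 429.9 at day 3, the peak of CUZD1. Of 8 non-neural ectoderm markers, 4 were higher in PIP at day 5, when CUZD1 and NPTX1 were lower there, and 8 at day 7, when RHBDL3 was higher. Their sum was 8684 to 9127 in NSB and 11770 to 12240 in PIP at day 5, and 5928 to 6877 and 16250 to 18760 at day 7. Of 7 trophoblast and amnion markers, 3 were higher in PIP at day 5. Of 8 neural ectoderm markers, 2 were lower in PIP at day 5, with sums of 5738 to 7227 in NSB and 5956 to 6445 in PIP. The part of these cell types in the members' values was not tested.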

How the data were processed

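Gene expression was measured on 30 Illumina bead arrays, 10 groups of 3, from H9 cells. The deposited table gives, per the file headers, for each of 48701 probes and each array a mean bead intensity without normalisation, a detection p-value, the count of beads and the standard error of the bead signal. Per the submitters' processing notes it was made with GenomeStudio, and no version or chip assignment is given in the sources used here; the table's own name marks it as neither normalised nor background-corrected. A second deposited table holds the authors' processed intensity, used as an alternative. Every value column was tied to a sample. The number of arrays limits the precision.

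Here the intensities were background-corrected with normexp using the detection p-values, an offset of 16 was added, and values were quantile-normalised and put on the log2 scale (neqc, limma 3.58.1, R 4.3.3). Of the probes, 23687 have 1 gene symbol in the platform annotation, 35 have several and 24979 have none; the latter 2 kinds were left out. The design text names HT-12 arrays. Probes detected (p under 0.05) on at least 3 arrays were kept, and the probe with the highest mean stood for a gene, which gave 13488 genes. A model with a mean per group was fitted by limma with lmFit and eBayes. P-values were 2-sided, Benjamini-Hochberg adjusted over all genes and called under 0.05. They measure the spread between arrays that the labels call biological replicates. "At least" folds set the brighter group against the lowest detected signal where the dimmer group was detected on no array. Shares of the day 3 level, halving times and marker sums use normalised values with the offset taken off.

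The members and gene lists were chosen with earlier results of these data known. Contrasts with day 1 or day 3 used the values that chose the members and carry no test for them. The genes named are the members with all their probes, the 3 genes most correlated with each over group means, neighbours in the order of rises, the largest rise and fall of each family list, POU5F1 and PAX6, and the 5 largest of the other genes that rose and fell. IRX3 is named as the gene the choice left out, and AMY2A and TUBB3 were named after their values were seen. Promoter windows came from RefSeq (GRCh38.p14) and matched 2 of the 4 members. Alternatives were 2 median scalings, the deposited processed values, an offset of 50, no detection filter, the mean of a gene's probes, only the groups compared, a replicate block and leaving out each array. The slide as a block was not run, because no slide is named in the files used here. Comparisons with day 9 left out or set against its neighbours were chosen after seeing the data. Scripts were tested on simulated data.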

Additional observations from a re-analysis of the deposited data

Results flagged for a closer look

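The change over days differed between the arms by limma's test of the difference itself, PIP minus NSB, for these results. From day 5 to day 7 the difference was 1.14 for NPTX1 and 0.46 for GALNT9. From day 5 to day 11 it was 2.45 for CUZD1, 1.74 for NPTX1, 0.83 for RHBDL3 and 0.66 for GALNT9. At day 11 CUZD1 and GALNT9 were detected on no array of either arm, and NPTX1 on none in PIP. Their values over days 5 to 11 thus rest on the floor and carry the gap already present at day 5. GALNT9 was also undetected in PIP at days 5 and 7 and in NSB at day 7. The GALNT9 result over days 5 to 7 was lost in 9 of 12 fits that left out 1 array. Those of RHBDL3 (0.56) and GALNT9 (0.18) over days 5 to 11 were lost with median scaling on the probes detected on all arrays.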

How the results depend on the processing

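The calls for CUZD1 and NPTX1 between the arms at days 5, 7 and 9, their falls from day 5 to day 7, and the calls for RHBDL3 at days 7 and 11 held under every alternative run. The replicate numbers did not pair the arrays: residuals of arrays with the same number correlated at a mean of -0.00907 (range -0.309 to 0.275), against 0.00477 for other numbers. The replicate block changed no call among the tested member results, with CUZD1 at -2.47 at day 5 (adjusted p = 7.45e-14).

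Most calls that changed concern GALNT9, which was near background after day 3, and the cause was not tested. For PIP against NSB, median scaling on all probes gave -0.085 for RHBDL3 at day 5 and -2e-04 for GALNT9 at day 11, with 1081 genes called at day 7 (1678 in the main setting) and 5628 at day 11 (3442). It gave -0.30 for GALNT9 from day 5 to day 7 in PIP (not past the threshold, 2845 genes called against 4520), and, for the difference between arms, 1.02 for RHBDL3 over days 5 to 7 (past it) and 6248 genes called over days 5 to 11 (2690). This scaling moved the median of all genes by up to -0.43 (NSB day 11 against day 3) and 0.45 (difference between arms, days 5 to 11). Scaling on the probes detected on all arrays gave, for PIP against NSB, 0.055 for GALNT9 at day 9, -0.40 for CUZD1 (past the threshold) and -0.37 for GALNT9 at day 11. It gave GALNT9 0.20 from NSB day 7 to day 9 and 0.059 from day 9 to day 11. Differences between arms over days 5 to 7 were then 0.68 for RHBDL3 (past the threshold) and 0.20 for GALNT9, and over days 5 to 11 0.56 for RHBDL3 and 0.18 for GALNT9 (neither past it). The deposited processed values gave -0.34 for NPTX1 at day 11, -0.069, 0.30 and -0.30 for GALNT9 over successive intervals in PIP from day 5 to day 11 (calls lost), and -0.36 for the CUZD1 difference over days 5 to 7. An offset of 50 put RHBDL3 at day 9 (0.34) and the differences over days 5 to 7 of CUZD1 (0.48) and RHBDL3 (0.61) past the threshold, and lost NPTX1 at day 11 (-0.20) and GALNT9 from NSB day 7 to day 9 (0.14) and from PIP day 5 to day 7 (-0.14). Without the filter the GALNT9 difference over days 5 to 7 (0.46) was lost.

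The mean of a gene's probes lost GALNT9 from NSB day 7 to day 9 (0.14), over the successive PIP intervals (-0.12, 0.12 and -0.095) and in the difference over days 5 to 7 (0.25). Fitting only the groups compared called 782 genes at day 7, put RHBDL3 at day 9 (0.39) and GALNT9 from PIP day 5 to day 11 (-0.22) past the threshold, and lost GALNT9 from NSB day 7 to day 9 (0.28) and in the difference over days 5 to 7 (0.46). Leaving out 1 array at a time, 875 to 1171 genes were called at day 5 (1554 in the main setting), the lowest without PIP day 5 replicate 1 and 978 without NSB day 5 replicate 3. The differences over days 5 to 7 ranged from -0.10 to 0.17 for CUZD1, 0.50 to 0.89 for RHBDL3 and 0.33 to 0.55 for GALNT9. PIP against NSB ranged for GALNT9 from -0.14 to 0.020 at day 9, and at day 11 from -0.041 to 0.020 for CUZD1, -0.50 to -0.34 for NPTX1 and -0.057 to 0.13 for GALNT9. From NSB day 7 to day 9 NPTX1 ranged from 0.25 to 0.45 and GALNT9 from 0.23 to 0.37. GALNT9 in PIP ranged from -0.34 to -0.26 (day 5 to day 7) and from -0.42 to -0.29 (day 9 to day 11, lost without PIP day 9 replicate 3, adjusted p = 0.0508).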
